A study of Homo sapiens with 6 samples.

Results

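The expression of the metallothionein genes, of the 2 zinc transporter families SLC30A and SLC39A, and of the metal-responsive regulator MTF1 was examined in the third pharyngeal pouch endoderm (3PPE) cultures treated with an siRNA against HOXA3. These 36 genes were the rows whose Ensembl identifiers carry the listed symbols in GENCODE release 29, among 58735 rows in all. They were 11 metallothionein genes, MTF1, 10 SLC30A genes and 14 SLC39A genes. The members were chosen by gene family after the counts of several metallothioneins were known to be lower in Si-HOXA3, so that differences between the groups are given as a description. No p-value of a single member is given, and how many members an all-gene fit called is set only beside the share of all genes. All cultures came from H9, a line of wild-type human embryonic stem cells, differentiated toward 3PPE first with Activin A and WNT3A and then with retinoic acid, SB431542, BMP4 and IWP2. At day 7, 3 cultures received the negative control siRNA (NC) and 3 received the HOXA3 siRNA (Si-HOXA3), both by lipid transfection, and RNA was collected at day 9. Each group thus stands on 1 cell line, 1 siRNA and 1 time point, and the labels call its samples triplicates. The study describes the repeats of its siRNA experiments as biologically independent, but whether the libraries came from separate differentiations is not stated in the sources used here.

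Metallothioneins are small proteins that are very rich in cysteine, and these cysteines hold zinc, copper and cadmium. The metal-responsive transcription factor MTF1 binds free zinc, moves to metal response elements in the metallothionein promoters and raises their transcription. Metallothionein mRNA therefore serves as a readout of zinc in the cytosol, although glucocorticoids and oxidative stress also raise it. SLC30A proteins (ZnT) carry zinc out of the cytosol, across the plasma membrane or into vesicles and organelles, whereas SLC39A proteins (ZIP) carry it into the cytosol. SLC30A1, the zinc exporter of the plasma membrane, is like the metallothioneins a target of MTF1.

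The sequences of the metallothionein genes show both features. The coding sequences of MT2A, MT1E and MT1G in GENCODE 29 are shown because the libraries of the 2 groups did not overlap for these genes, and the cysteine codons are in capitals.
MT2A: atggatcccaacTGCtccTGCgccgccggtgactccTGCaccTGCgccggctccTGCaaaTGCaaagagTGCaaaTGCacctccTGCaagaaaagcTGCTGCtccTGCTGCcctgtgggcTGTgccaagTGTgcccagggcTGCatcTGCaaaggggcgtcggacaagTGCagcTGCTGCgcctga
MT1E: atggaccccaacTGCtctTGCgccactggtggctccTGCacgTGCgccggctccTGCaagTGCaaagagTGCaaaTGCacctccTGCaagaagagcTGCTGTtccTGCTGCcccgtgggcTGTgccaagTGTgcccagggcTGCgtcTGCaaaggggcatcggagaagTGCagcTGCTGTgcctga
MT1G: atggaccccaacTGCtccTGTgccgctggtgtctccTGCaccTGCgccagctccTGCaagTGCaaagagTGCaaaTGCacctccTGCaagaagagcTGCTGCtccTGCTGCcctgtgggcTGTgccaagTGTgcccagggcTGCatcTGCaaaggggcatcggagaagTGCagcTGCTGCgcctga
Each of the 8 metallothionein genes with at least 1 count had a coding sequence of 186 bases with 61 codons before the stop, of which 20 (32.8%) were cysteine codons. Any pair of these 8 coding sequences was identical at 88.7% to 95.2% of the aligned bases. MT2A was identical to MT1G at 95.2% and to MT1E at 92.5%. Over the whole transcripts, 3.02% of the 50-base stretches of MT2A, 7.10% of those of MT1E and 16.5% of those of MT1G occurred in a transcript of another gene. For MT1F and MT1X the share was 1.22% and 18.3%. How reads that match several genes were counted is not given in the sources used here, so the split between neighbouring metallothionein genes is uncertain to that extent, more for MT1X and MT1G than for MT2A.

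The core of a metal response element, TGCACNC or TGCGCNC, was searched on both strands in the 250 bases before each RefSeq gene start (GRCh38.p14), each match being counted at its own position and strand. Windows were found for 27 of the 36 genes. Not covered were MT1A, MT1E, MT1F, MT1G, MT1M, MT3, SLC30A8, SLC39A4 and SLC39A14. Among all 35116 windows, 24.8% held at least 1 core, 6.48% at least 2 and 1.58% at least 3. The 5 metallothionein genes with a window, MT1B, MT1H, MT1X, MT2A and MT4, each held between 3 and 8 cores. MT1H held 8 cores and MT2A 7, and 0.120% of all windows held 5 or more. Of the 21 zinc transporter genes with a window, 10 held at least 1 core, counting for genes with several starts the window with the most. Only SLC30A2, with 3 cores, and SLC30A3, with 2, held more than 1 among these 21. SLC30A1 held 1 core and MTF1 none. On the strand of the gene alone, 7 of the 21 transporter genes held a core in at least 1 of their windows. Of all windows, 14.1% held one. That share is per window and not per gene, so the 2 values are not of the same unit. A match of letters is not a bound site. Windows are shown for MT1H, in which the most cores were found, for MT1X and for MT1B, which had no count in any library, all on the plus strand of chromosome 16 with the cores in capitals.
MT1H, chr16:56669564-56669813: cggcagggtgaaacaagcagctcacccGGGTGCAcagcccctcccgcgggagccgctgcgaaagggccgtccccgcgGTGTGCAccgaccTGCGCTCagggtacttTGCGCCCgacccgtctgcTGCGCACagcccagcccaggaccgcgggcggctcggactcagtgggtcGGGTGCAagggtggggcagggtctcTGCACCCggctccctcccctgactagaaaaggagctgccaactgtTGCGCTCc
MT1X, chr16:56682220-56682423: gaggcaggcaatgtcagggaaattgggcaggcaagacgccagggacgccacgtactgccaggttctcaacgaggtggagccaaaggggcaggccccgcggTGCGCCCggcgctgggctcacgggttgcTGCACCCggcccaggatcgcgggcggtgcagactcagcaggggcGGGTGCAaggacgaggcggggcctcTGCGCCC
MT1B, chr16:56651636-56651885: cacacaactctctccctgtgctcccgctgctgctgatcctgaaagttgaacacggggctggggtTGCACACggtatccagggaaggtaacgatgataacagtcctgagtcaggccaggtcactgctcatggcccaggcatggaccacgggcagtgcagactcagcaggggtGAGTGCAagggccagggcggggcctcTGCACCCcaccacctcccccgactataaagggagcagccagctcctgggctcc
The MT1X window is shown up to the first base of the GENCODE gene, which begins 46 bases before the RefSeq start. That of MT2A lies within the first exon of the longest GENCODE transcript and is not shown in full. In 4 of these genes a core on the strand of the gene began 53 or 54 bases before the start, and 29 bases around it are shown for comparison.
MT2A, chr16:56608519-56608547: ggcggggctttTGCACTCgtcccggctct
MT1X, chr16:56682406-56682434: ggcggggcctcTGCGCCCggccctcttcc
MT1H, chr16:56669750-56669778: ggcagggtctcTGCACCCggctccctccc
MT1B, chr16:56651822-56651850: ggcggggcctcTGCACCCcaccacctccc
Of these 29 bases, 20 in MT1X, 18 in MT1B and 17 in MT1H were the same as in MT2A. MT1B, with 3 cores and no count, and MT2A, with 7 cores and the highest metallothionein counts, thus carry this proximal core alike. MT1X and MT1H also held a core on the other strand 78 bases before the start, and MT1B had one 79 bases before it.

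**Figure D1:**
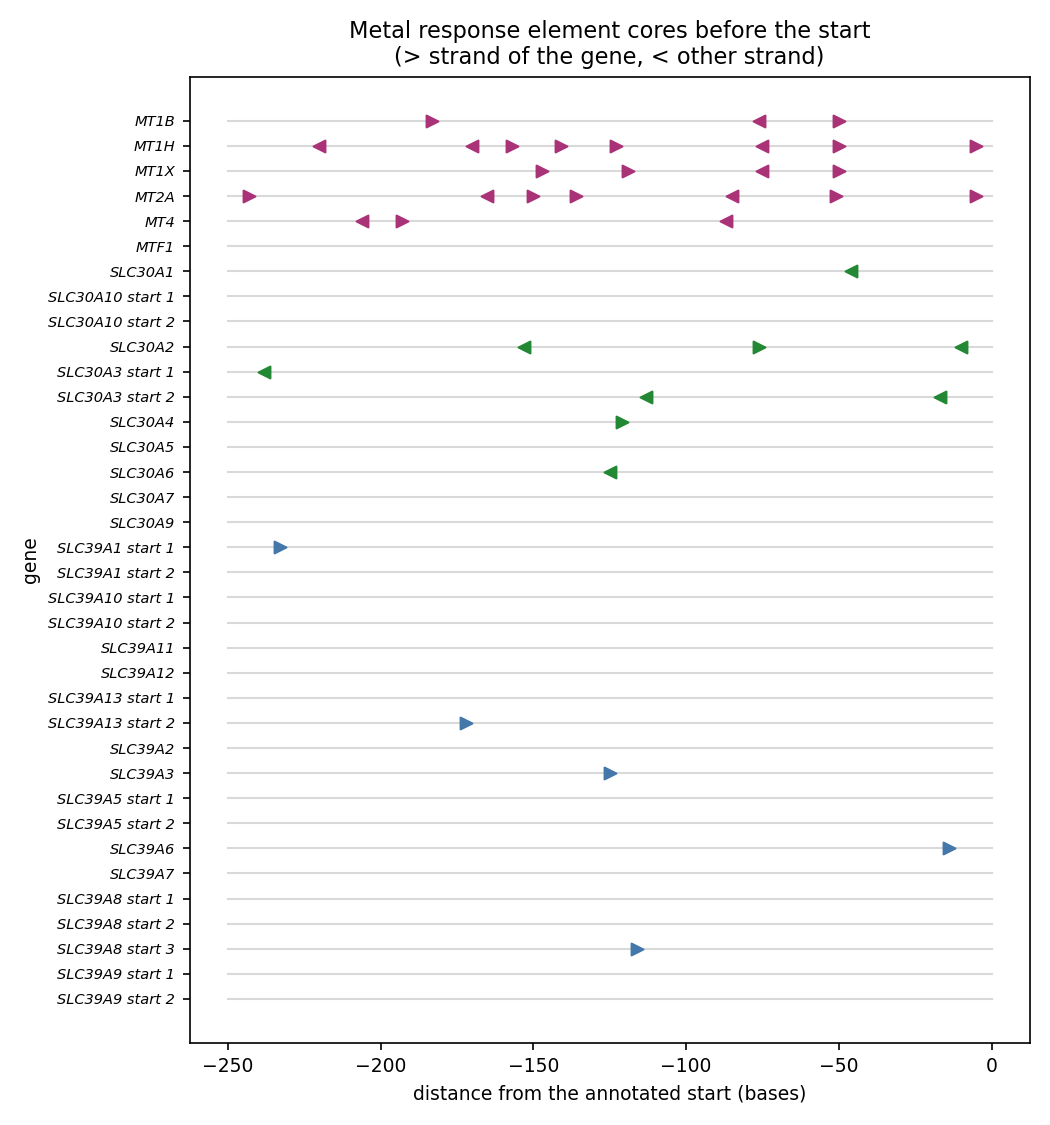
Cores TGCACNC or TGCGCNC in the 250 bases before each RefSeq start of the 27 genes with a window, by distance from the start in bases; genes with several starts have 1 line for each. Purple marks metallothioneins, green SLC30A and blue SLC39A, and arrowheads point along (>) or against (<) the strand of the gene. The metallothionein lines hold 3 to 8 cores each, and no transporter line holds more than 3.

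Total counts ranged from 14117150 to 15282307 per library, and 3 counts, the most that a gene without counts may hide by counting error alone, came to 0.196 to 0.211 CPM, the unit used here for counts scaled to the normalised library size. HOXA3 was at 16.6, 15.8 and 15.4 CPM in the NC libraries and at 10.9, 13.2 and 15.5 CPM in the Si-HOXA3 libraries. The targeted mRNA was thus lower by a log2 of 0.27 (log2 fold change -0.27, SE 0.16, edgeR adjusted p = 0.828), and the groups overlapped. The labelled 3PPE identity was checked against markers. PAX9 (0.613 CPM in NC), PAX1, TBX1, GCM2, FOXA2 and SOX17 were at or under 1 CPM in both group means. In contrast, EYA1 (36.2 CPM), EPCAM (262 CPM) and KRT8 (3622 CPM) were present, as were GATA3 (290.4 CPM), HAND1 (333 CPM) and IGFBP3 (3110 CPM) of the amnion and trophoblast list. The Si-HOXA3 2 library stood apart from all the others. Its counts differed from those of each other library with a chi-square of 27.9 to 33.9 per degree of freedom, against 4.80 to 11.7 in the 10 pairs without it.

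As a family, the metallothioneins were lower after HOXA3 siRNA, without overlap between the libraries of the 2 groups. Their summed expression was 75.7, 39.0 and 34.0 CPM in NC 1, 2 and 3, and 18.4, 20.5 and 11.8 CPM in Si-HOXA3 1, 2 and 3. The NC mean of 49.6 ± 22.8 CPM was 2.93-fold the Si-HOXA3 mean of 16.9 ± 4.55 CPM (SD, n = 3). NC 1 was the high library, and without it the difference was 2.16-fold. Si-HOXA3 3 had the lowest sum, while HOXA3 in Si-HOXA3 1, 2 and 3 was at 10.9, 13.2 and 15.5 CPM. The relation of HOXA3 to these sums was not tested. MT2A, the most abundant metallothionein mRNA here, made up 67.9%, 57.0% and 58.3% of the metallothionein counts in NC and 47.2%, 40.5% and 39.3% in Si-HOXA3. With MT2A left out, the other metallothioneins together were at 18.4 ± 5.26 CPM in NC against 9.70 ± 2.52 CPM in Si-HOXA3, or 1.90-fold apart (1.59-fold without NC 1). These are bulk cultures, in which fewer cells with metallothionein mRNA and less of it per cell cannot be told apart.

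MT2A (ENSG00000125148, chromosome 16 from 56608199 to 56609497, plus strand) had 768, 337 and 303 counts in NC and 127, 125 and 66 in Si-HOXA3. In CPM this was 51.4, 22.2 and 19.8 against 8.71, 8.29 and 4.64, so that the lowest NC library was 2.27-fold above the highest Si-HOXA3 library. NC 1 was 2.45-fold above the mean of the other NC libraries. The log2 fold change was -2.11 (SE 0.36, n = 3 and 3), or 2.91-fold lower in Si-HOXA3 when NC 1 was left out. MT1G, on the minus strand and the only metallothionein gene of the cluster in that orientation, had 72, 30 and 21 counts in NC and 3, 6 and 3 in Si-HOXA3. All of its Si-HOXA3 libraries were close to the limit of 3 counts. Its log2 fold change was -3.28 (SE 0.59), and without NC 1 it was -2.58, or 5.99-fold. From the summed counts of 123 and 12, the ratio was 9.91 with a 95% counting interval from 5.47 to 19.7. Such an interval covers counting error in the summed counts only. It leaves out the spread between libraries and is therefore too narrow for a difference between the groups. MT1E differed less but more evenly. It had 163, 169 and 137 counts in NC and 90, 112 and 69 in Si-HOXA3, with no library of one group inside the other, and a log2 fold change of -0.75 (SE 0.20).

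The other metallothionein genes did not separate the groups. MT1F had 90, 35 and 47 counts in NC against 37, 57 and 27 in Si-HOXA3, with a log2 fold change of -0.47 (SE 0.38) that came to 0.03 without NC 1. MT1X had 15, 7 and 11 counts against 10, 9 and 3, with a log2 fold change of -0.53 (SE 0.55), which ran from -0.82 without Si-HOXA3 1 to -0.18 without Si-HOXA3 3. The groups overlapped for both genes. MT1H was removed by the filter on low counts although its counts were unequal, with 16, 13 and 1 in NC and 1, 0 and 0 in Si-HOXA3. Its summed counts gave a ratio of 29, and the counting interval from 4.82 to 1183 shows how little 1 count fixes. MT1A had 6 counts in NC 1 and none elsewhere, and MT1M had 1 count in each of NC 1 and Si-HOXA3 1. MT1B, MT3 and MT4 had no count in any library, MT3 being known from brain and MT4 from stratified epithelium.

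**Figure D2:**
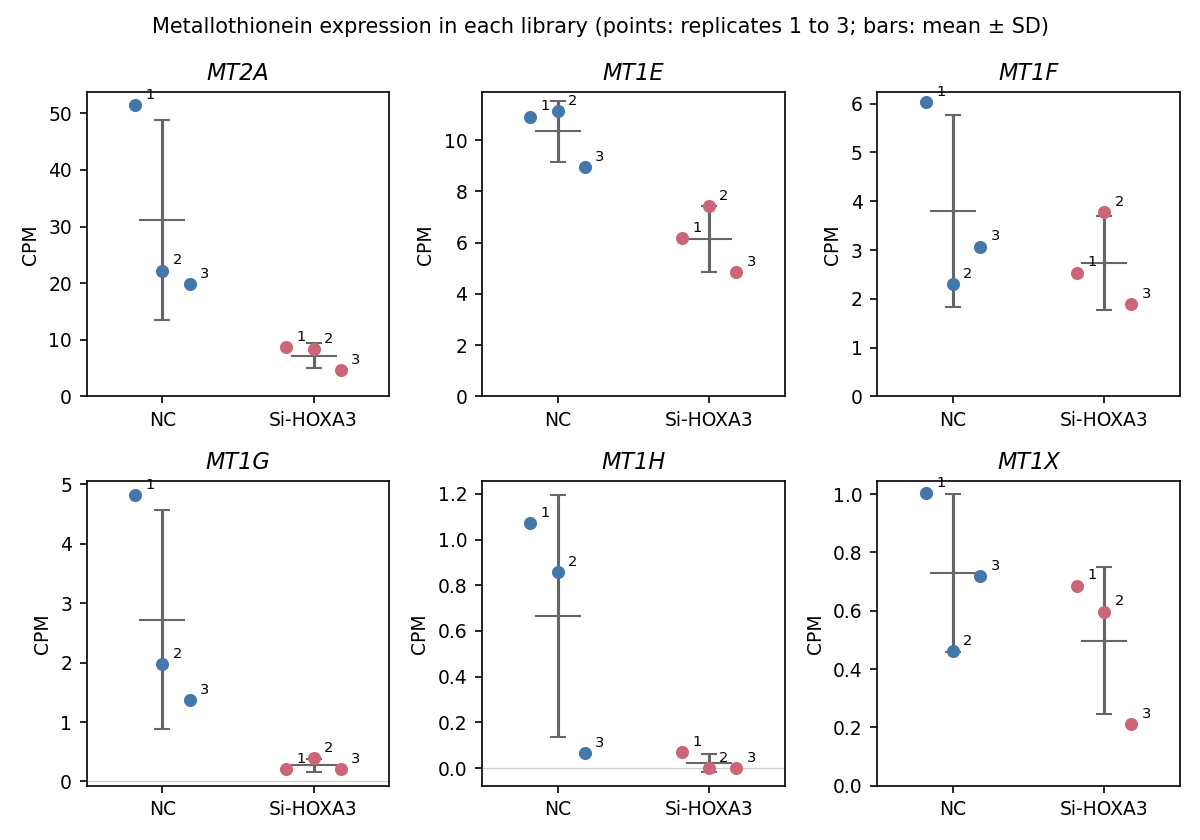
Expression of 6 metallothionein genes in CPM (vertical axes, each with its own scale) in the NC and Si-HOXA3 libraries; points are libraries with their replicate number, horizontal bars the means and vertical bars the SD (n = 3). For MT2A, MT1E and MT1G every Si-HOXA3 point lies below every NC point, and for MT1F, MT1H and MT1X the groups overlap.

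Of the 36 genes, 31 had at least 1 count and 24 passed the filter on low counts. By edgeR, 0 of these 24 had an adjusted p under 0.05, against 0.00604% of the 16561 genes tested, which is 1 gene outside this list. At an unadjusted p under 0.05 there were 4, namely MT2A, MT1G, MT1E and SLC30A7, all lower in Si-HOXA3, where 6.36% of all genes passed, 2.57% with a lower and 3.79% with a higher level. DESeq2 and limma-voom each gave an adjusted p under 0.05 for MT2A and MT1G, where 38 and 47 of the 16561 genes passed. Leaving out Si-HOXA3 2 gave edgeR 1 such member, MT1G, where 24 of 17144 genes passed. In 7 of the 24 genes every Si-HOXA3 library was below every NC library, and in 0 the reverse held, where 6.89% and 6.38% of all genes did so. The 7 were MT2A, MT1G, MT1E, SLC30A6, SLC30A7, SLC39A10 and SLC39A14. The sign was negative in 20 of the 24 and in 49.6% of all genes. The median log2 fold change over the 24 was -0.14, and over all genes 0.0019. Since the contrast chose the list, nothing is read from these counts.

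The zinc transporters did not follow the metallothioneins in size, and their differences between the groups were small. Among the 18 transporter genes tested, the log2 fold change ran from -0.26 to 0.40 with a median of -0.10, and 16 of the 18 lay within 0.3 of 0. The 5 metallothionein genes tested ran from -3.28 to -0.47 with a median of -0.75. The summed SLC30A expression was 387 ± 18.8 CPM in NC against 366 ± 26.6 CPM in Si-HOXA3, and the libraries overlapped. The summed SLC39A expression was 783 ± 14 CPM in NC against 726 ± 17.1 CPM in Si-HOXA3, lower in each Si-HOXA3 library (737, 706 and 734 CPM) than in each NC library (767, 794 and 788 CPM). As ratios of Si-HOXA3 to NC these were 0.945 and 0.927, against 0.341 for the metallothioneins. MTF1 itself was at 21.8 ± 2.72 CPM in NC against 19.8 ± 5.62 CPM in Si-HOXA3 (log2 fold change -0.14, SE 0.20). Its lowest library was Si-HOXA3 2, at 13.3 CPM, the groups overlapped, and the value was 0.08 without that library.

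**Figure D3:**
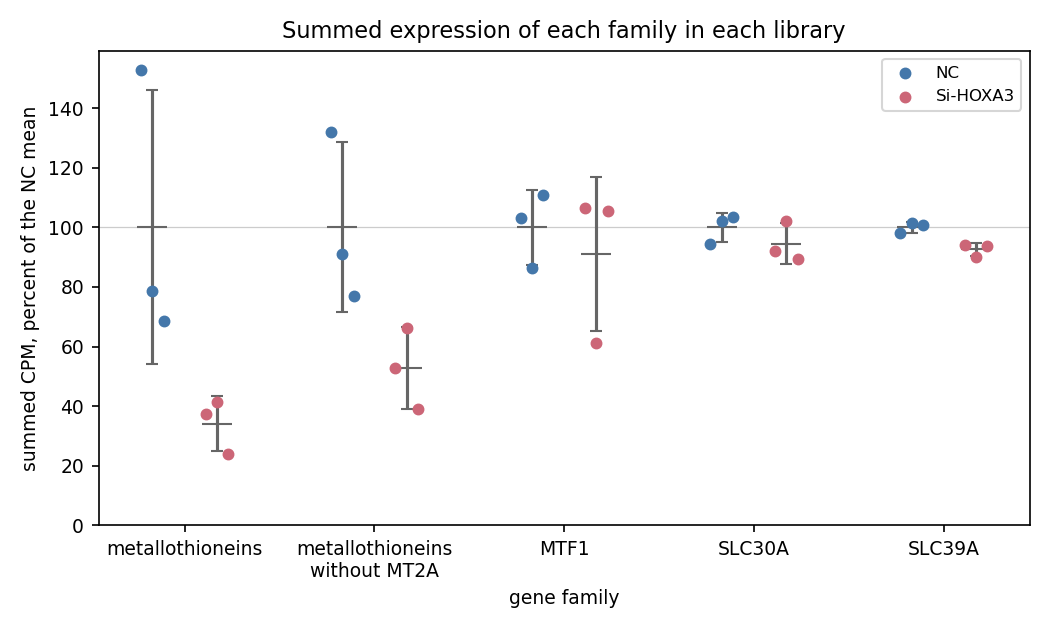
Summed CPM of the metallothioneins, of the metallothioneins without MT2A, of MTF1, and of the SLC30A and SLC39A genes in each library, as a percentage of the NC mean; points are libraries, bars the mean and SD (n = 3). The metallothionein points of Si-HOXA3 lie well below those of NC, while both transporter families stay near the NC mean, at ratios of 0.945 and 0.927.

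SLC30A1, the transporter gene known to be controlled by MTF1 as well, did not differ in the direction of the metallothioneins. It was at 44.3, 53.9 and 60.3 CPM in NC and at 56.2, 63.8 and 53.3 CPM in Si-HOXA3. The groups overlapped, and the log2 fold change was 0.13 (SE 0.13). Within NC, SLC30A1 was lowest in NC 1, the library in which MT2A was highest. More broadly, NC 1 was the highest NC library for 5 of the 6 metallothionein genes with at least 10 counts in all. For the 18 transporter genes tested it was the highest for 4 and the lowest for 10. These 3 NC libraries are too few for a correlation, and the values are given as a description. The part of MTF1 or of zinc in these differences was not tested.

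Among the other SLC30A genes, SLC30A7 and SLC30A6 of the secretory pathway were lower in every Si-HOXA3 library by small amounts. SLC30A7, a transporter of the Golgi, was at 51.1, 55.1 and 56.3 CPM in NC and at 45.6, 45.5 and 45.5 CPM in Si-HOXA3 (log2 fold change -0.25, SE 0.10). SLC30A6, which pairs with SLC30A5 to load zinc into secretory pathway enzymes, was at 84.2, 88.2 and 90.1 CPM against 74.3, 83.5 and 70.2 CPM (-0.20, SE 0.10). Neither gene's groups overlapped. Its partner SLC30A5 overlapped, at 68.3 ± 3.08 and 65.6 ± 6.53 CPM (-0.06, SE 0.11). SLC30A9, a mitochondrial carrier and the SLC30A gene with the highest CPM, was at 116 ± 2.65 and 113 ± 9.21 CPM (-0.03, SE 0.10). The vesicle transporters SLC30A4 (-0.26, SE 0.19) and SLC30A2 (-0.01, SE 0.37) were low, at 7.66 ± 1.17 and 1.24 ± 0.329 CPM in NC, and overlapped. Without NC 1 the SLC30A2 value was 0.22. SLC30A10, a manganese exporter, did not pass the filter. It had 1, 0 and 2 counts in NC and 15, 0 and 14 in Si-HOXA3, so Si-HOXA3 2, with no count, was unlike the other libraries of its group. SLC30A3 had 6 counts, all in NC 3, and SLC30A8, the carrier of insulin granules, had none.

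Of the SLC39A genes, SLC39A10 and SLC39A14 did not overlap between the groups. SLC39A10, which forms a complex with SLC39A6 at the plasma membrane, was at 235, 246 and 236 CPM in NC and at 229, 199 and 225 CPM in Si-HOXA3 (log2 fold change -0.13, SE 0.10). SLC39A14, which also takes up iron and manganese, was at 79.9, 88.8 and 85.6 CPM against 73.8, 70.2 and 75.9 CPM (-0.21, SE 0.10). Both were lower in every Si-HOXA3 library, by a margin of a few CPM between the nearest libraries. The other genes overlapped between the groups. SLC39A7, which releases zinc from the endoplasmic reticulum, was at 140.2 ± 5.80 CPM in NC against 131 ± 7.67 CPM in Si-HOXA3 (-0.10, SE 0.10). The values were -0.10 (SE 0.10) for SLC39A6, -0.15 (SE 0.11) for SLC39A8 and -0.13 (SE 0.11) for SLC39A9. SLC39A11 (-0.01, SE 0.12) and SLC39A13 (0.0047, SE 0.13) were closest to 0, the latter a carrier of Golgi and vesicles needed in connective tissue. SLC39A1 (-0.19, SE 0.35) had 16 to 24 counts in each library, and 60.3% of its 50-base stretches were shared with transcripts of CREB3L4 and AL358472.7, so its counts are uncertain.

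A pair of zinc importers had the highest positive values. SLC39A3, at the plasma membrane, was at 14.3, 15.3 and 13.9 CPM in NC and at 14.6, 25.7 and 16.9 CPM in Si-HOXA3 (0.40, SE 0.20). Its highest library was Si-HOXA3 2, which stood apart, and without it the value was 0.12. SLC39A4, the carrier of intestinal zinc uptake, had 28, 21 and 41 counts in NC and 35, 45 and 34 in Si-HOXA3 (0.39, SE 0.31), and the value ran from 0.19 without NC 2 to 0.67 without NC 3. SLC39A5 did not pass the filter, with 8, 1 and 6 counts in NC and 13, 20 and 7 in Si-HOXA3. SLC39A2 had at most 6 counts in a library, and SLC39A12 had none.

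**Figure D4:**
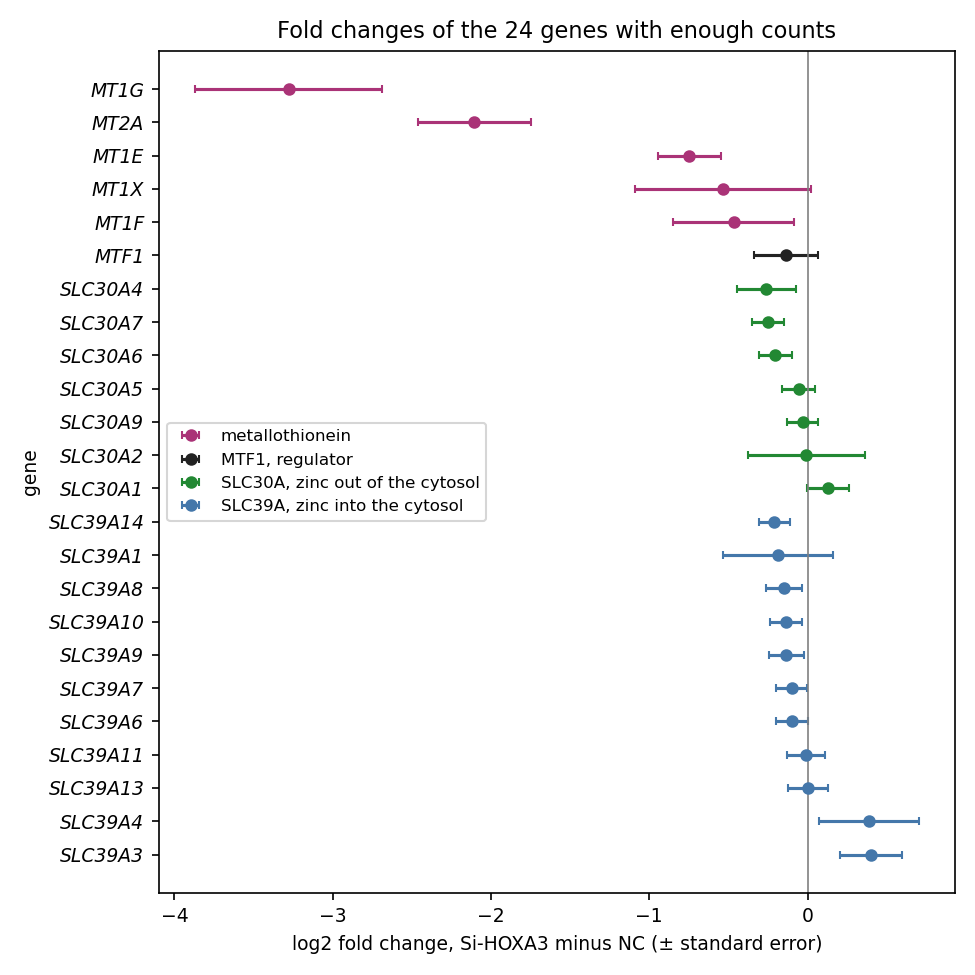
Log2 fold change (Si-HOXA3 minus NC) with its standard error for the 24 genes that passed the filter, ordered by value within the metallothioneins, MTF1, SLC30A and SLC39A. The 5 metallothioneins lie from -3.28 to -0.47, and the 18 transporters from -0.26 to 0.40.

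Levels were also compared between the genes per length of exon, as counts per exon base scaled to the same sum in every library. In NC, SLC39A7 was the highest of the 36 genes (195 ± 11.5), followed by SLC39A10 (137 ± 3.35), MT2A (94.6 ± 52.3), SLC39A6 (64.9 ± 3.78), SLC30A6 (64.1 ± 3.25) and SLC30A9 (63.4 ± 1.72). MT2A held rank 3 with each of 3 choices of transcript length, but its NC libraries ran from 61.7 to 154.9. It was therefore not separated from SLC39A10 above it or from SLC39A6, SLC30A6 and SLC30A9 below it. SLC39A6, SLC30A6 and SLC30A9 did not differ beyond their spread either. The order below MT2A depended on the length used, since with the longest or the principal transcript SLC39A8 held rank 4, SLC30A6 rank 8 and SLC39A6 rank 9. MT1E was at 38.9 ± 3.88, beside SLC30A1 at 38.3 ± 6.46, but with the principal transcript their means were 37.7 and 24.8.

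The metallothioneins, with the exception of MT1E, also varied more than the transporters among the NC libraries. This spread is taken within NC, but NC 1 also enters the difference that was known when the list was chosen. Across the 3 NC libraries the coefficient of variation of the CPM was 56.5% for MT2A, 67.6% for MT1G and 51.6% for MT1F, which placed these genes at the 97.1, 98.5 and 96.0 percentile of all genes tested. MT1E was the exception in NC, at 11.6% and the 56.1 percentile. Across the Si-HOXA3 libraries it was at 21.0%, beside 31.1% for MT2A, 40.4% for MT1G and 35.0% for MT1F. In NC the median over the 5 metallothioneins tested was 51.6%, and over the 18 transporters it was 6.44%. Much of this rested on NC 1. Between NC 2 and NC 3 alone the value was 8.14% for MT2A, 15.4% for MT1E, 25.6% for MT1G and 20.1% for MT1F. The medians were then 20.1% for the metallothioneins and 5.59% for the transporters. Part of such spread comes from counting, which weighs most on MT1X and MT1G, but MT2A had at least 303 counts in each NC library.

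Genes around the metallothioneins were examined for a difference over the whole locus. The 11 metallothionein genes lie within 119 kb of chromosome 16, from 56565049 to 56684196. Of 14 other annotated genes in or within 100 kb of this stretch, 3 passed the filter. These were OGFOD1 (log2 fold change -0.02, SE 0.11) and BBS2 (0.01, SE 0.11) on the side of MT4, and NUP93 (-0.07, SE 0.10) on the side of MT1X. The 5 metallothionein pseudogenes inside the cluster had no count except MT1L, with 4 in NC 1 and 1 in Si-HOXA3 3. The 4 pseudogenes elsewhere in the genome had at most 2 counts in any library, and MT1HL1, a copy annotated as coding, had none.

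**Figure D5:**
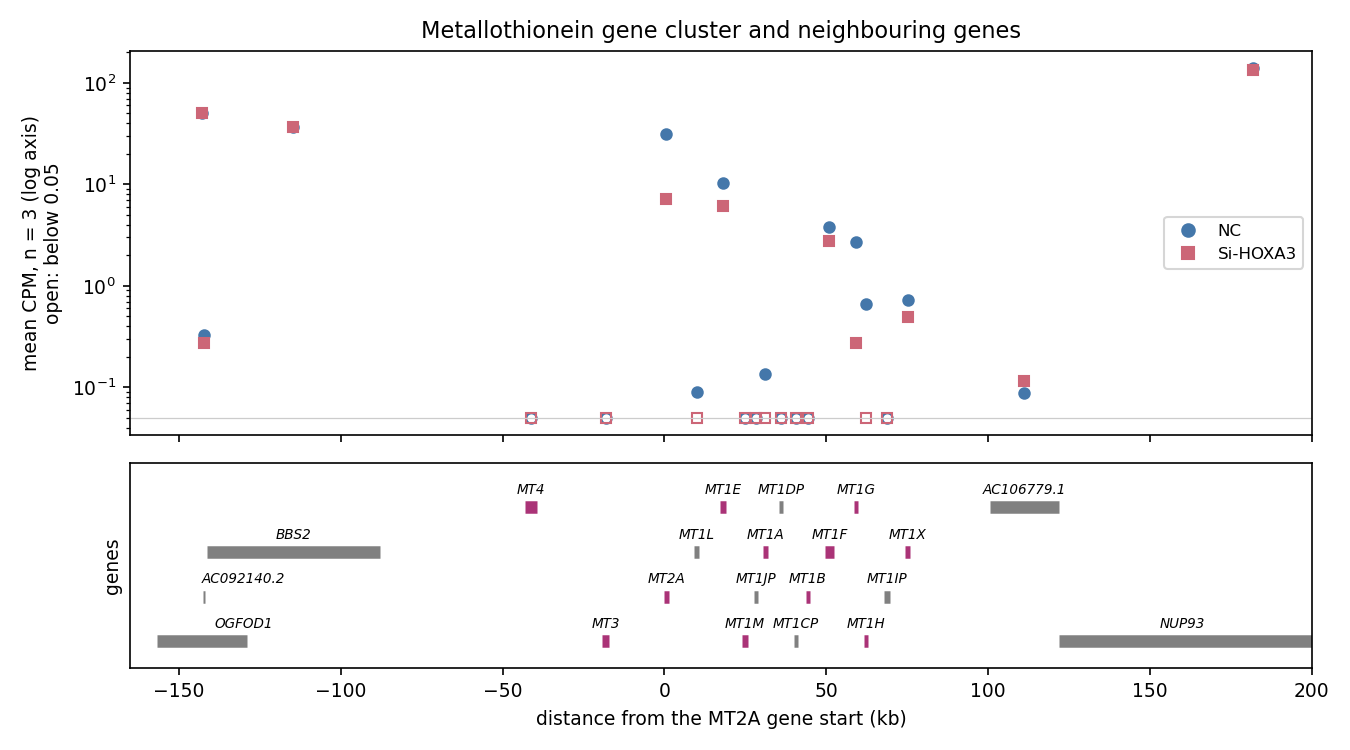
Mean CPM in NC (circles) and Si-HOXA3 (squares), on a log axis, of the genes in and around the metallothionein cluster, by distance from the MT2A gene start in kb; open symbols are means below 0.05 CPM, and the lower panel shows the genes, metallothioneins in purple, with NUP93 running past the right edge. The symbols part at MT2A, MT1E, MT1G and MT1H and lie on each other at OGFOD1, BBS2 and NUP93. They also part at MT1A and MT1L, which rest on few counts, with 6 and 4 in NC 1.

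Genes of copper, iron and other metal handling were set beside the zinc genes, from a list of 27. Of these, 23 passed the filter and 0 had an adjusted p under 0.05 by edgeR, DESeq2 or limma-voom. At an unadjusted p under 0.05 edgeR gave 2, COX17 and ACO1, where 6.36% of all genes passed. COX17, a copper chaperone of cytochrome c oxidase, was at 11.9 ± 1.43 CPM in NC against 15.5 ± 2.28 CPM in Si-HOXA3 (log2 fold change 0.38, SE 0.16, edgeR adjusted p = 0.759). ACO1, the iron regulatory protein that is also cytosolic aconitase, was at 65.1 ± 4.91 and 55.2 ± 2.58 CPM (-0.24, SE 0.10, edgeR adjusted p = 0.762). Neither passed the adjusted threshold. The median log2 fold change was 0.10 over the 8 copper genes tested, -0.05 over the 12 iron genes and -0.10 over the 3 other carriers. ATP7A, the copper exporter, was at 0.09 (SE 0.16), and the ferritin heavy chain FTH1 was at 0.38 (SE 0.24), with a low NC 3 library at 293 CPM beside 537 and 585 CPM.

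Markers of other cell types were summed in each library, since metallothionein levels differ between tissues. The 5 liver markers, of which none was at 0 in all libraries, summed to 13.9 to 17.2 CPM in NC and 11.3 to 14.5 CPM in Si-HOXA3. The 6 amnion and trophoblast markers summed to 3861 to 4067 CPM in NC and 4347 to 4825 CPM in Si-HOXA3, so that this list was higher in every Si-HOXA3 library. IGFBP3 made up most of the sum, and without it the list was at 851 to 931 CPM in NC and 979 to 1009 CPM in Si-HOXA3. CGA of this list had the opposite sign, at 17.3 ± 2.42 and 12.7 ± 3.72 CPM (log2 fold change -0.45, SE 0.21, edgeR adjusted p = 0.781). Of these 6 genes, TFAP2A passed an unadjusted p under 0.05 (log2 fold change 0.23, SE 0.10, edgeR adjusted p = 0.781). The 4 markers of pluripotent cells summed to 1042 to 1070 CPM in NC and 1084 to 1206 CPM in Si-HOXA3. This list, too, was higher in every Si-HOXA3 library. LIN28A made up most of its sum, at 1047 ± 13.7 and 1146 ± 62.7 CPM (log2 fold change 0.13, SE 0.11). LIN28A and POU5F1 did not overlap between the groups, SOX2 did, and NANOG did not pass the filter. The 5 mesenchyme markers summed to 2483 to 2637 and 2593 to 3021 CPM, with VIM at 0.50 (SE 0.14, edgeR adjusted p = 0.561), and the 4 neural markers to 65.0 to 83.0 and 76.6 to 95.4 CPM. Their part in the metallothionein difference was not tested.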

How the data were processed

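RNA-seq libraries of 3 NC and 3 Si-HOXA3 cultures were compared. The authors deposited 1 table of raw counts of reads per gene, without normalization. The methods name LM-Seq and single reads, the labels also name a SMARTER kit, and the aligner and counting program are not given in the sources used here. The submitters' processing notes name the mouse build GRCm38 (mm10), although the identifiers were those of human genes. All were found in GENCODE 29 (GRCh38), from which symbols, positions and coding sequences were taken, and promoter windows were from RefSeq (GRCh38.p14).

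Genes were filtered, scaled and tested with edgeR 4.0.16 under R 4.3.3 (filterByExpr, TMM, robust quasi-likelihood fit, two-sided test), and p-values were adjusted by Benjamini-Hochberg over 16561 genes. With 3 libraries in each group, an exact permutation p cannot be lower than 0.1. CPM were computed from the deposited counts. Coding sequences were aligned with Biopython 1.88. Alternatives were DESeq2 1.42.0, limma 3.58.1 (voom with quality weights), upper-quartile scaling, library size only, no filter, a filter of CPM above 1 in 3 libraries, the replicate number as a block, and each library left out. The script was tested on simulated counts. No 2 libraries agreed within sampling noise, so none was treated as a copy of another, and each counted as 1 replicate. This does not show that they came from separate differentiations. Members and lists were chosen with earlier results of these data known. Every member was accounted for, and neighbours of the cluster and listed genes past an unadjusted p of 0.05 were named. The length of the principal transcript was added after seeing the data.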

Additional observations from a re-analysis of the deposited data

How the results depend on the processing

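Across all genes, 1 had an adjusted p under 0.05, and this count came to 38 with DESeq2, 100 without a filter, 47 with limma-voom and 1 to 24 with a library left out, the most without Si-HOXA3 2. At an unadjusted p under 0.05 the count of 1053 came to 1862 without a filter and 2206 with limma-voom. With a library left out it ran from 643 to 1828, the lowest without NC 2 (643) and NC 3 (671) and the highest without Si-HOXA3 2. The number of genes tested also changed, so these counts are not shares of the same total. It was 16561 in the main fit and with limma-voom, 34513 without a filter and 17062 to 17153 with a library left out. Among the metallothionein and zinc transporter genes the adjusted count of 0 came to 2 with DESeq2 and with limma-voom (MT1G and MT2A), 2 without a filter (MT1G and MT1H) and 0 to 1 with a library left out. Their unadjusted count of 4 among the 24 tested came to 7 among 31 without a filter and 7 with limma-voom. With a library left out it ran from 3 to 9, the latter without Si-HOXA3 2. The other metal genes past an unadjusted p numbered 2, against 1 with DESeq2, 1 with upper-quartile scaling, 1 without a filter and 0 to 2 with a library left out, 0 without NC 2 or NC 3 and 1 without Si-HOXA3 1 or Si-HOXA3 2. The median log2 fold change of the metallothioneins tested, -0.75, came to -1.42 without a filter, -1.43 with the CPM filter and -1.59 to -0.71 with a library left out, and in the settings that moved it MT1H entered the test or, with the CPM filter, MT1X left it. The SLC30A median stayed between -0.14 and -0.02 and the SLC39A median between -0.12 and -0.07 in all alternatives run. Of 311 fold changes of single genes under an alternative, 304 moved by less than 1 SD and 16 changed sign. Of the latter, 1 was among the 64 of metallothioneins (MT1F without NC 1) and 15 were spread over MTF1, SLC30A2, SLC30A5, SLC30A9, SLC39A11 and SLC39A13.

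When replicate numbers entered as a block, 4 genes of the whole table had an adjusted p under 0.05, and 1 of the metallothionein and zinc transporter genes, MT2A. The numbers are not shown to pair the samples, as the deviations of same-numbered samples correlated at 0.18, 0.12 and -0.08. Depth limits what can be said of MT1A, MT1H, MT1M and MT1X, with at most 16 counts in a library.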

Other observations

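Metallothionein genes are also known targets of glucocorticoids and are raised along with oxidative stress and heat shock genes, and lists of these 3 responses were read in the same libraries. Of 9 oxidative stress genes, all tested, 0 passed an adjusted or an unadjusted p under 0.05 by edgeR, and the median log2 fold change was -0.14, with 7 of the 9 negative. Their summed level was lower in every Si-HOXA3 library (441 to 446 CPM) than in every NC library (456 to 490.3 CPM). TXNRD1, thioredoxin reductase, made up the largest part of this sum (190.1 ± 3.62 against 171 ± 8.85 CPM, log2 fold change -0.15, SE 0.09). It was the only gene of the 9 whose groups did not overlap, so the lower sum does not stand for the list as a whole. The part of this list in the metallothionein difference was not tested. HMOX1, heme oxygenase and a sensitive gene of that response, was at 11.5 ± 1.44 CPM in NC against 10.5 ± 0.676 CPM in Si-HOXA3 (log2 fold change -0.14, SE 0.16). Of 7 heat shock genes, HSPB1, a small chaperone, passed an unadjusted p under 0.05, at 42.8 ± 7.43 CPM in NC against 59.5 ± 13.6 CPM in Si-HOXA3 (0.47, SE 0.17, edgeR adjusted p = 0.720), with Si-HOXA3 2 the highest library at 75.1 CPM. Of the paired genes HSPA1A and HSPA1B, the former was at 0.42 (SE 0.19, edgeR adjusted p = 0.781) and higher in every Si-HOXA3 library than in every NC library, and the latter was at 0.0030; these near-identical copies share reads, so the split between them is uncertain. Of 7 glucocorticoid targets, 6 were tested, 0 passed an unadjusted p under 0.05, and the median was 0.05. TSC22D3 was at -0.09 (SE 0.24) and FKBP5 at 0.12. Of these 6 genes, 2 (PER1 and FKBP5) were highest among the NC libraries in NC 1, where MT2A was highest.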
